A study of Mus musculus with 6 samples.

Results

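Glycolysis converts glucose to pyruvate in the cytosol, and many tumors run it at a high rate and release the product as lactate even where oxygen is present. When oxygen is short, the prolyl hydroxylases that mark HIF-1α for breakdown slow down, and HIF-1 then binds short core sequences near its target genes, among them most enzymes of glycolysis. The colon is a tissue in which this system is active at rest, because oxygen falls steeply from the base of the crypts to the lumen. Described here are 33 mouse genes of this system, chosen by name for their place in the pathways: 3 of glucose entry and phosphorylation, 7 of the upper and 6 of the lower steps of glycolysis, 3 that set the fate of pyruvate and lactate, 2 bifunctional regulators, 3 of oxygen sensing and 9 other HIF targets. The names were found in 34 of the 54532 rows of the deposited gene table, since Aldoa had 2 rows, and all 34 were among the 16426 rows with a mean FPKM of at least 0.5 that were tested. FPKM is the number of reads on a gene divided by its length and by a measure of library depth.

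RNA-seq was performed on colon tumors of 3 Tmem173fl/fl and 3 Tmem173iΔmye mice. All mice carried Tmem173, the gene encoding STING, flanked by loxP sites, and all received azoxymethane (AOM, a colon carcinogen), 3 cycles of dextran sodium sulfate (DSS, which injures the colon epithelium) and then tamoxifen (TAM), so that deletion was induced once tumors had formed (AOM+DSS-L groups). Tmem173iΔmye mice (Tmem173fl/fl Lyz2-Creert2) carried in addition a TAM-dependent Cre recombinase under Lyz2, a gene expressed in macrophages, monocytes and neutrophils, whereas Tmem173fl/fl mice carried no Cre. The age at harvest was not given in the sources used here. The RNA came from whole tumors, so a gene expressed in myeloid cells was measured together with the same gene in all other cells, and fewer cells of a type cannot be told apart from less RNA per cell. The samples were described as randomly selected, and p-values measure the spread between these 6 samples. The comparison asks whether loss of STING in myeloid cells after tumor formation goes along with other levels of glycolysis and hypoxia genes in the tumor.

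The reads counted on genes numbered 15329810 to 16533732 per tumor. Tmem173 had 114, 194 and 102 CPM (a gene's share of the counted reads scaled so that they sum to 1000000, with library sizes normalized by TMM) in Tmem173fl/fl replicates 1, 2 and 3 and 145, 141 and 124 CPM in Tmem173iΔmye replicates 1, 2 and 3, with overlapping groups. Its log2 fold change was 0.0015 (SE 0.24, adjusted p = 1 from edgeR). All 8 epithelial marker genes were present in every tumor, with summed levels from 11200 to 12110 CPM in Tmem173fl/fl and from 11810 to 13290 CPM in Tmem173iΔmye tumors. Y-linked genes had between 2655 and 3547 reads in 1 Tmem173fl/fl and 2 Tmem173iΔmye tumors and at most 2 reads in the remaining 3, so males were unequally spread over the genotypes. Of the 5 red blood cell markers, none at 0 in all tumors, 4 had an unadjusted p-value under 0.05 from edgeR and were lower in Tmem173iΔmye tumors. Of all genes tested, 2.9% were so, and 0 passed adjustment. The marker list was chosen with earlier results of these data known, and the groups overlapped for each marker. The summed levels of these markers were 9.75, 66.9 and 155 CPM in the Tmem173fl/fl and 21.7, 8.32 and 19.5 CPM in the Tmem173iΔmye tumors.

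The glycolysis and hypoxia genes were called about as rarely as all genes tested, of which 0 passed adjustment. Tested by edgeR (quasi-likelihood, Benjamini-Hochberg adjustment over all genes tested), 0 of the 34 rows had an adjusted p-value under 0.05, as was so for 0% of all genes tested, and the smallest adjusted p-value was 0.742. DESeq2 and limma also gave 0 of the 34 rows at this threshold. Before adjustment, 1 of the 34 rows (2.94%), Ndrg1, had a p-value under 0.05, against 6.14% of all genes tested. This row was lower in Tmem173iΔmye tumors, against 2.9% of all genes tested, and 0 rows were higher, against 3.23% of all genes. When a log2 fold change of 1 or more in size was required as well, 0 rows passed, against 2.12% of all genes. The values of the groups did not overlap for 2 of the 34 rows (5.88%), Slc2a1 and Hk1, against 12.5% of all genes.

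All fold changes here are Tmem173iΔmye over Tmem173fl/fl. The median log2 fold change was -0.09 over the 34 rows and -0.004 over all genes tested, with 25 rows below 0 and 9 above. Of the 34 rows, 27 had an absolute log2 fold change under 0.25. The median over the rows was -0.01 without Tmem173fl/fl replicate 3. In that tumor the rows lay at a median of 0.25 above their own mean over the 6 tumors on the log2(CPM + 1) scale, whereas the medians of the other 5 tumors ranged from -0.10 to 0.03.

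**Figure D1:**
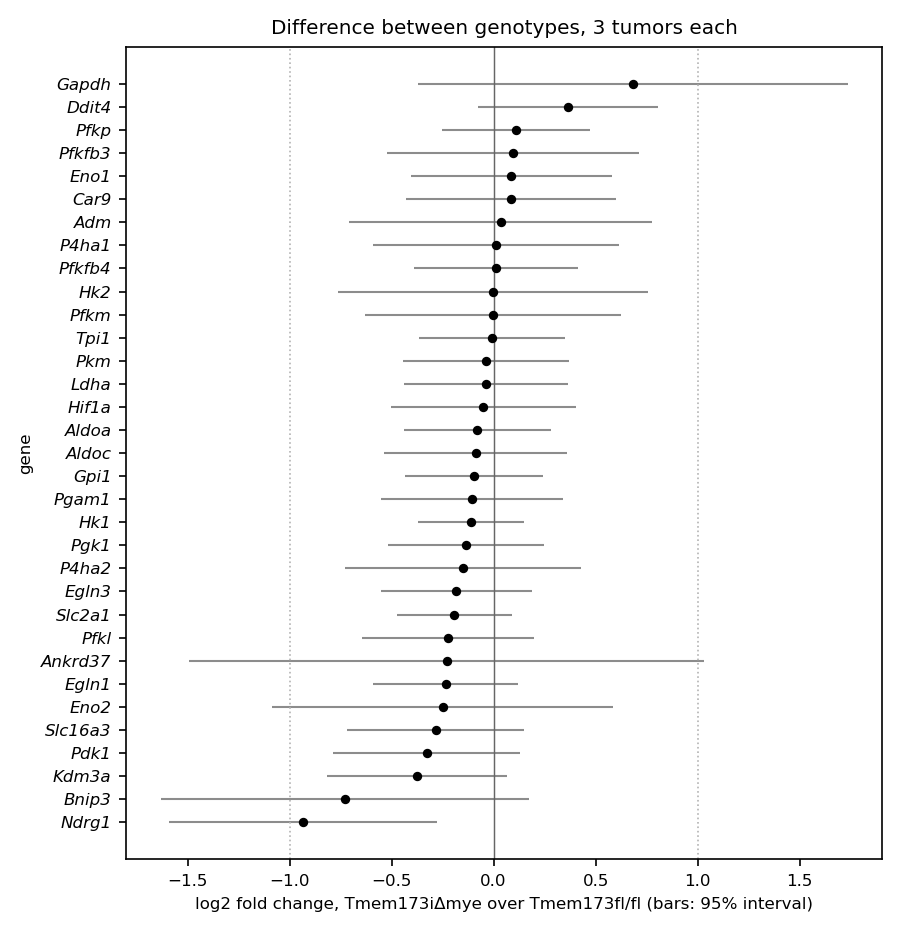
Log2 fold change of each of the 33 genes (points; Tmem173iΔmye over Tmem173fl/fl, edgeR, n = 3 tumors per genotype) with its 95% confidence interval (bars), and dotted lines at -1 and 1. The interval of Ndrg1 alone lies on 1 side of 0, and the widest intervals are those of Ankrd37, Gapdh and Bnip3.

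Glucose enters the cell through Slc2a1 (GLUT1) and is trapped there as glucose-6-phosphate by the hexokinases Hk1 and Hk2. Slc2a1 (chr4:119108711-119137983) was measured at 188, 181 and 185 CPM in the Tmem173fl/fl tumors and at 179, 152.5 and 153 CPM in the Tmem173iΔmye tumors, in the order of replicates 1, 2 and 3 used throughout. All Tmem173fl/fl tumors thus lay above all Tmem173iΔmye tumors, although Tmem173iΔmye replicate 1 was close to the lowest of them. Slc2a1 had a log2 fold change of -0.19 (edgeR SE 0.12, adjusted p = 0.752 from edgeR, 95% interval -0.48 to 0.09). Hk1 had between 141 and 157 CPM in Tmem173fl/fl and between 134 and 138 CPM in Tmem173iΔmye tumors (log2 fold change -0.11, SE 0.11, adjusted p = 0.812 from edgeR).

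Hk2, the hexokinase that HIF-1 induces, was the more abundant of the pair in every tumor, with 66.7% to 83% of their summed FPKM. It had 402, 535 and 199.8 CPM in Tmem173fl/fl and 446, 351 and 339 CPM in Tmem173iΔmye tumors. The lowest value was in Tmem173fl/fl replicate 3 and the highest in Tmem173fl/fl replicate 2, so the spread within the genotype was larger than the difference between the groups. The log2 fold change of -0.001 had an SE of 0.33 (adjusted p = 1.0 from edgeR), and it was 0.33 without Tmem173fl/fl replicate 2 and -0.30 without replicate 3.

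In the upper steps, Gpi1 isomerizes glucose-6-phosphate, the phosphofructokinases Pfkl, Pfkm and Pfkp commit the sugar to glycolysis, and aldolase and Tpi1 split it and interconvert the products. Of these 7 genes and the second Aldoa row, 0 had an unadjusted p-value under 0.05, and their log2 fold changes ranged from -0.23 to 0.11. Gpi1 had between 439.7 and 559 CPM in the Tmem173fl/fl and between 444.5 and 476 CPM in the Tmem173iΔmye tumors. Among the phosphofructokinases, the liver-type Pfkl held 52.6% to 71.1% of the summed FPKM, the platelet-type Pfkp 24% to 40.6% and the muscle-type Pfkm 4.42% to 6.92%. Pfkl reached its highest level (240 CPM) and its highest share in Tmem173fl/fl replicate 3, and its lowest level (143 CPM) and share in Tmem173iΔmye replicate 1, where Pfkp was at its highest (221 CPM). The log2 fold changes of Pfkl (-0.22, SE 0.18) and Pfkp (0.11, SE 0.16) did not pass the test, and that of Pfkm was -0.003 (SE 0.27).

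Aldoa (chr7:126795234-126800751) was among the most abundant of all the genes described here. Its FPKM was 302, 317 and 362 in the Tmem173fl/fl and 345.5, 293 and 291 in the Tmem173iΔmye tumors. The groups overlapped, Tmem173fl/fl replicate 3 was highest, and the log2 fold change was -0.08 (SE 0.16, adjusted p = 0.905 from edgeR). Aldoa made up 96.1% to 97.2% of the summed FPKM of Aldoa and Aldoc, the brain-type aldolase. The second row with the name Aldoa, an entry just upstream of the first on the same strand, had under 1.2 CPM in every tumor. The log2 fold change was -0.09 (SE 0.19) for Aldoc and -0.01 (SE 0.15) for Tpi1.

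**Figure D2:**
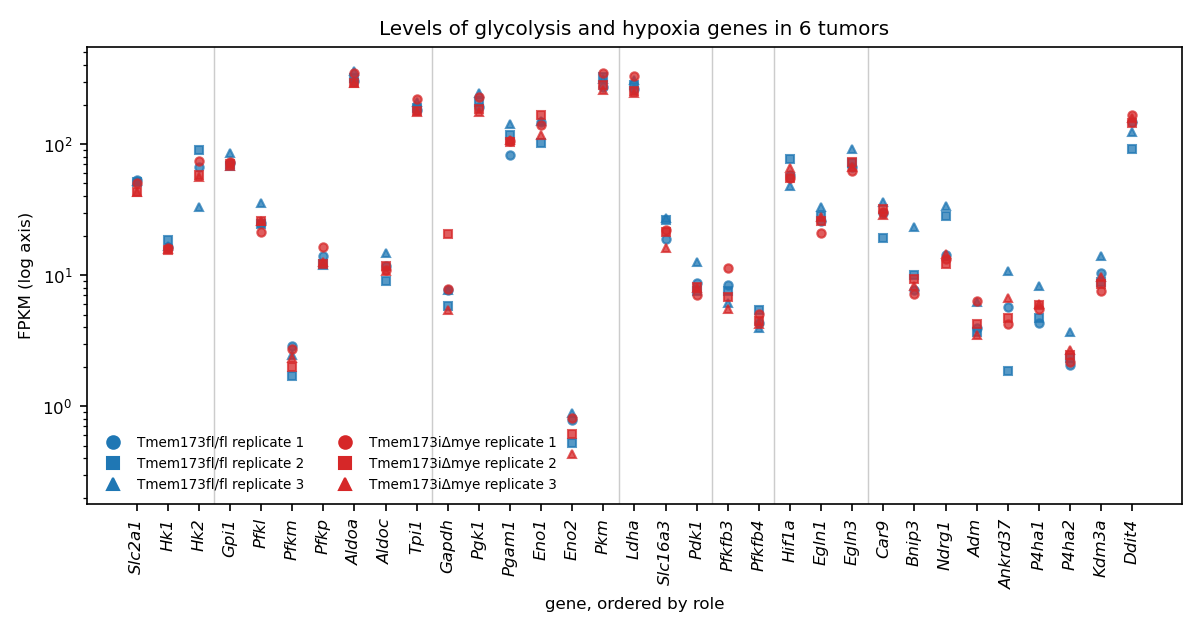
FPKM on a log axis of the 33 genes (the main Aldoa row shown) in each of the 6 tumors, with the genes ordered by role and thin lines between roles. Pkm, Aldoa and Ldha lie highest, between 245 and 362 FPKM, and Eno2 lowest, under 1 FPKM in every tumor. Gapdh, whose near-identical copies elsewhere in the genome also had reads, lies well below Tpi1 and Pgk1, its neighbours in the pathway.

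In the lower steps, Gapdh oxidizes the triose phosphate, Pgk1 and Pkm yield ATP, and Pgam1 and the enolases Eno1 and Eno2 lie between them. Pkm (chr9:59656368-59679375), pyruvate kinase, had 274, 327 and 315 FPKM in the Tmem173fl/fl and 351, 282.5 and 259.5 FPKM in the Tmem173iΔmye tumors. Both the highest and the lowest value were in Tmem173iΔmye tumors, and the log2 fold change was -0.04 (SE 0.18, adjusted p = 0.965 from edgeR). Pgk1 (chrX:106187100-106203699) had 190.4, 211 and 245 FPKM in the Tmem173fl/fl and 228, 186 and 175 FPKM in the Tmem173iΔmye tumors, and its log2 fold change was -0.14 (SE 0.17, adjusted p = 0.844 from edgeR). The groups overlapped for both genes. Pgam1 was lowest (82.3 FPKM) and highest (141 FPKM) in Tmem173fl/fl tumors, and its log2 fold change was -0.11 (SE 0.19). Eno2, the neuronal enolase, stayed under 1 FPKM and made up at most 0.592% of the summed FPKM of the enolase pair, with a log2 fold change of -0.25 (SE 0.36).

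Near-identical copies of Eno1 and Gapdh elsewhere in the genome also had many reads. A copy was taken as a gene whose transcript matched that of a listed gene at 90% identity or more over at least 300 bases and over at least 0.5 of the copy's longest transcript. Eno1 had 5 such copies, of which 4 had reads. It had 805, 546 and 806 CPM in the Tmem173fl/fl and 749, 903 and 638 CPM in the Tmem173iΔmye tumors. Tmem173fl/fl replicate 2 was lowest, and the log2 fold change was 0.09 (SE 0.21, adjusted p = 0.929 from edgeR). The copies held 2.76%, 32.6% and 4.05% of the summed Eno1 and copy reads in the Tmem173fl/fl and 16.2%, 2.77% and 16.7% in the Tmem173iΔmye tumors, most of them on Eno1b, which matched Eno1 at 99.5% identity. The share was thus high in 3 of the 6 tumors and low in the other 3, with tumors of both genotypes on each side. The mean shares of the genotypes did not differ beyond this spread (exact two-sided permutation test, p = 0.9).

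With the reads of the copies added, Eno1 had 828, 810 and 840 CPM in the Tmem173fl/fl and 893, 929 and 766 CPM in the Tmem173iΔmye tumors. Tmem173fl/fl replicate 2 then no longer stood below the others, and the ratio of the highest to the lowest tumor was 1.21 in place of 1.65. The summed means were 826 ± 15.3 (SD, n = 3) and 863 ± 85.7 CPM (SD, n = 3, exact two-sided permutation p = 0.5, where 3 tumors against 3 cannot go below 0.1). The log2 fold change was 0.06 with the reads of the copies merged. How the reads were divided between Eno1 and its copies cannot be told from counts per gene.

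Gapdh, on which expression is often normalized, stood at only 5.42 to 20.7 FPKM, against 175 to 245 FPKM for Pgk1, the next enzyme of the pathway. It had 32.4, 23.9 and 31.8 CPM in the Tmem173fl/fl and 32.6, 86.1 and 22.5 CPM in the Tmem173iΔmye tumors. Tmem173iΔmye replicate 2 stood alone above the other 5 tumors. The log2 fold change was 0.68 (SE 0.45, adjusted p = 0.756 from edgeR) with all tumors, -0.09 without that tumor and 1.01 without Tmem173iΔmye replicate 3. A total of 168 copies matched Gapdh, of which 112 had reads, and they held between 31.3% and 71% of the summed reads. With the copies merged, the log2 fold change was 0.09, and the summed level was 82.4 ± 4.53 CPM (SD, n = 3) in Tmem173fl/fl and 87.7 ± 33.4 CPM (SD, n = 3) in Tmem173iΔmye tumors. The summed level was still below 126 CPM in every tumor. How reads that match Gapdh and its copies alike were counted was not given. Neither level can therefore be read as the level of Gapdh RNA. The copies of the other listed genes held at most 4.19% of the summed reads in any tumor.

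**Figure D3:**
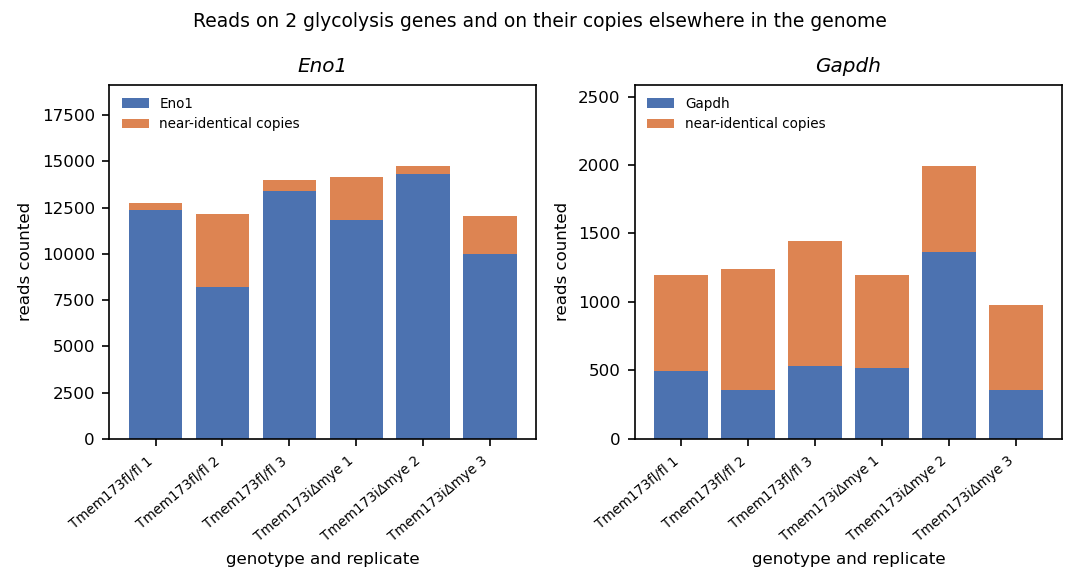
Reads counted on Eno1 (left) and Gapdh (right) in each tumor (blue), with the reads on their near-identical copies stacked on top (orange). The copies of Eno1 held 32.6% of the reads in Tmem173fl/fl replicate 2 and about 16% to 17% in Tmem173iΔmye replicates 1 and 3, against 2.76% to 4.05% in the others, and the reads on Gapdh itself were high in Tmem173iΔmye replicate 2.

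Pyruvate is reduced to lactate by Ldha, lactate leaves the cell through Slc16a3 (MCT4), and Pdk1 keeps pyruvate out of the mitochondria by inhibiting pyruvate dehydrogenase. Ldha (chr7:46841475-46855627) had 263, 280 and 309 FPKM in the Tmem173fl/fl and 332, 254 and 245 FPKM in the Tmem173iΔmye tumors. As for Pkm, the extremes were Tmem173iΔmye replicates 1 and 3, and the log2 fold change was -0.04 (SE 0.17, adjusted p = 0.964 from edgeR). Slc16a3 (chr11:120948480-120960868) had 101, 139 and 147 CPM in the Tmem173fl/fl and 118, 114 and 86.1 CPM in the Tmem173iΔmye tumors. The groups overlapped, and the log2 fold change was -0.28 (SE 0.19, adjusted p = 0.756 from edgeR).

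Pdk1 had 69, 58.7 and 98.9 CPM in the Tmem173fl/fl and 55.4, 63.1 and 62.1 CPM in the Tmem173iΔmye tumors. Tmem173fl/fl replicate 3 stood above the other 5 tumors, which lay close together. Its log2 fold change was -0.33 (SE 0.20, adjusted p = 0.75 from edgeR) with all tumors and -0.08 without that one. The bifunctional enzymes Pfkfb3 and Pfkfb4, which set the level of the fructose-2,6-bisphosphate that activates phosphofructokinase, had log2 fold changes of 0.10 (SE 0.27) and 0.01 (SE 0.17). Pfkfb3 ranged from 42.1 CPM in Tmem173iΔmye replicate 3 to 86.2 CPM in Tmem173iΔmye replicate 1, so its extremes lay in the same genotype.

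Of the oxygen sensing genes, Hif1a encodes the oxygen-regulated subunit of HIF-1, and Egln1 (PHD2) and Egln3 (PHD3) are prolyl hydroxylases that mark it for breakdown. HIF-1α is set mostly by protein breakdown, which RNA does not show. Hif1a (chr12:73901375-73947530) had 346, 454 and 283.5 CPM in the Tmem173fl/fl and 326.5, 330.0 and 389.9 CPM in the Tmem173iΔmye tumors. Tmem173fl/fl tumors held both the highest and the lowest value, and the log2 fold change was -0.05 (SE 0.20, adjusted p = 0.954 from edgeR). The lowest Hif1a was in Tmem173fl/fl replicate 3.

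Egln1 (chr8:124908587-124949324) had 94.7, 102 and 121 CPM in the Tmem173fl/fl and 76.1, 93.3 and 100.4 CPM in the Tmem173iΔmye tumors (log2 fold change -0.23, SE 0.15, adjusted p = 0.756 from edgeR). Egln3 (chr12:54178981-54203860), itself a HIF target, had 179.5, 189 and 247 CPM in the Tmem173fl/fl and 166, 197 and 179 CPM in the Tmem173iΔmye tumors (log2 fold change -0.18, SE 0.16, adjusted p = 0.786 from edgeR). Both hydroxylases were highest in Tmem173fl/fl replicate 3 and lowest in Tmem173iΔmye replicate 1, and the groups overlapped. Without Tmem173fl/fl replicate 3, the log2 fold change was -0.12 for Egln1 and -0.02 for Egln3. Egln3 held 70.7% to 74.6% of the summed FPKM of the pair.

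The core of the hypoxia response element, which HIF binds, was searched in the promoters of the 33 genes as ACGTG or GCGTG on either strand, in RefSeq windows (GRCm38.p6) from 250 bases before to 50 bases after each start site. The windows of 32 genes were found, all but Ndrg1. Of these 32 genes, 29 (90.6%) held at least 1 core in at least 1 window, against 46.7% of all genes with a window and 65.5% of the tested genes with one, and over single windows it was 78.7% of 47 against 43.8% of 32851. A gene with several windows has more places for a core, and known HIF targets were among the genes chosen for the list. The median GC content was 62.8% for the 32 genes and 60.3% for the tested genes. All 8 HIF targets with a window held a core, and Gpi1, Tpi1 and Eno2 held none. Of the other genes with a window, Tpi1 alone is without a core, while of the genes that were highest in Tmem173fl/fl replicate 3, Gpi1 and Eno2 are. To show what the cores look like, the 250 bases before a start site with a core are given for 4 other genes that were highest in this tumor and for Hk2, which was lowest there, each 5′ to 3′ on the strand of the gene with the cores in capitals. The windows are chr7:138909507-138909756 (minus strand) for Bnip3, chr10:59323046-59323295 (plus) for P4ha1, chr2:71872974-71873223 (plus) for Pdk1, chr6:71632918-71633167 (minus) for Kdm3a and chr6:82774455-82774704 (minus) for Hk2.
Bnip3: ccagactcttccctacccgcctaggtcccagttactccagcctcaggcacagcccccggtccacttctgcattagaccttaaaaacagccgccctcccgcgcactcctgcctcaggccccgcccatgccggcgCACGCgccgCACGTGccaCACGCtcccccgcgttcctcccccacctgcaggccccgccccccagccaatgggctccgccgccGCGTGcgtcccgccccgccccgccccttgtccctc
P4ha1: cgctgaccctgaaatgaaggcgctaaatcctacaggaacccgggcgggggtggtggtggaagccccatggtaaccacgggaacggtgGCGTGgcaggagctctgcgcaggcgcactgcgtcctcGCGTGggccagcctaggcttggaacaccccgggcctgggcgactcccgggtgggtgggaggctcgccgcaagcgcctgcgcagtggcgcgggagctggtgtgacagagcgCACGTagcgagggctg
Pdk1: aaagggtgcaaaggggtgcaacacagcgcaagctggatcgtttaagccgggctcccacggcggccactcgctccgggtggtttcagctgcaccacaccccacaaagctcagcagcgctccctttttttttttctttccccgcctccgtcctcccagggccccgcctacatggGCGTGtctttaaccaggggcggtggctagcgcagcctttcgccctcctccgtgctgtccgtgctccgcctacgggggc
Kdm3a: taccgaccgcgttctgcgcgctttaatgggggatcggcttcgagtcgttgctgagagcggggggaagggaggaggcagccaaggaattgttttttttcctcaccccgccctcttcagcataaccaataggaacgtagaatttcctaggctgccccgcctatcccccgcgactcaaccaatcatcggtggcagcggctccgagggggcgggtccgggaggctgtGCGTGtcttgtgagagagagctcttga
Hk2: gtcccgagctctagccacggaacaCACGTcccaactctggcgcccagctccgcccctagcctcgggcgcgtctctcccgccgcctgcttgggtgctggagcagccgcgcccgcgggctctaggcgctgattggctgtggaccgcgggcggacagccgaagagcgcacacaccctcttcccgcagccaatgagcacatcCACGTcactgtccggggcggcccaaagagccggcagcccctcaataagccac
Bnip3 held 5 cores between 117 and 35 bases before its start site, of which a pair overlaps in a palindrome that reads as a core on both strands. P4ha1 held 3 cores at 163, 126 and 16 bases before the start, Kdm3a held 1 at 27 and Hk2 2 at 226 and 52. Pdk1 held 1 at 78 and another that spans the start site, so that it is cut off in the stretch shown and not capitalized. Kdm3a had 2 further windows and Pdk1 had 1, all with 0 cores. A match of these letters is a description of the sequence, and Hk2, with 2 cores, was lowest in the tumor in which the other 4 were highest.

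The other HIF targets serve several ends: Car9 buffers pH outside the cell, Bnip3 directs mitochondria to breakdown, P4ha1 and P4ha2 hydroxylate collagen, Kdm3a removes methyl groups from histone H3, Adm is a vasodilator peptide, Ddit4 (REDD1) restrains mTORC1, and Ndrg1 is a gene of differentiation and stress. Ndrg1 (chr15:66929318-66969640) had 95.6, 187.5 and 222 CPM in the Tmem173fl/fl and 87.1, 80.9 and 96.2 CPM in the Tmem173iΔmye tumors. Tmem173fl/fl replicates 2 and 3 stood well above all others, while replicate 1 lay within the range of the Tmem173iΔmye tumors. The mean was 168 ± 65.3 CPM (SD, n = 3) against 88.1 ± 7.69 CPM (SD, n = 3), and the log2 fold change was -0.93 (SE 0.28, unadjusted p = 0.0114 and adjusted p = 0.742 from edgeR). Without Tmem173fl/fl replicate 3 it was -0.68, and with Y-linked reads as a covariate it was -0.64. Tmem173fl/fl replicates 2 and 3, with high Ndrg1, had at most 2 Y-linked reads, and replicate 1 had 3547. Tmem173iΔmye replicate 3, with 2 Y-linked reads, had 96.2 CPM of Ndrg1. The adjusted p-value of Ndrg1 ranged from 0.224 with DESeq2 to 1 over the alternatives run. The tumors with high Ndrg1 were also those with the most red blood cell RNA, 66.9 and 155 CPM in Tmem173fl/fl replicates 2 and 3 against 8.32 to 21.7 CPM in the other 4 tumors, and its part in the result was not tested.

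Bnip3 (chr7:138890836-138909519) had 17.8, 22.8 and 53.1 CPM in the Tmem173fl/fl and 16.3, 21.3 and 18.9 CPM in the Tmem173iΔmye tumors. A single tumor, Tmem173fl/fl replicate 3, stood apart, and the other 5 tumors of both genotypes overlapped. For Bnip3 the log2 fold change was -0.73 (SE 0.39, adjusted p = 0.742 from edgeR) and -0.10 without that tumor. Kdm3a had 86.7, 72.5 and 115 CPM in the Tmem173fl/fl and 61.9, 70.4 and 79.5 CPM in the Tmem173iΔmye tumors, where the log2 fold change was -0.37 (SE 0.19, adjusted p = 0.742 from edgeR), and -0.17 without Tmem173fl/fl replicate 3. Tmem173fl/fl replicate 2 lay within the Tmem173iΔmye range for Kdm3a.

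P4ha1 had 17.9, 19.3 and 34.4 CPM in the Tmem173fl/fl and 22.7, 24.6 and 25.0 CPM in the Tmem173iΔmye tumors. The Tmem173fl/fl tumors lay on both sides of the Tmem173iΔmye tumors, which differed little among themselves. For P4ha1 the log2 fold change was 0.01 (SE 0.26) with all tumors and 0.38 without Tmem173fl/fl replicate 3. P4ha2 had the same highest and the same lowest tumor, with a log2 fold change of -0.15 (SE 0.25). Car9 was lowest in Tmem173fl/fl replicate 2 (44.1 CPM) and highest in replicate 3 (84.1 CPM), with all Tmem173iΔmye tumors between them, from 66.4 to 74.2 CPM (log2 fold change 0.09, SE 0.22). Ankrd37, a small ankyrin repeat gene, had 8.97, 2.87 and 16.6 CPM in the Tmem173fl/fl and 6.57, 7.31 and 10.4 CPM in the Tmem173iΔmye tumors, again with the Tmem173fl/fl tumors at both ends (log2 fold change -0.23, SE 0.54).

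Ddit4 was the HIF target with the largest difference in the other direction. It had 262, 160.3 and 219.6 CPM in the Tmem173fl/fl and 293, 255 and 278 CPM in the Tmem173iΔmye tumors. The lowest 2 tumors were Tmem173fl/fl replicates 2 and 3, and replicate 1 lay within the Tmem173iΔmye range. Those 2 tumors had at most 2 Y-linked reads, as did Tmem173iΔmye replicate 3, which had 278 CPM of Ddit4. Ddit4 differed by 0.36 on the log2 scale (SE 0.19, adjusted p = 0.742 from edgeR). Adm was low throughout, from 5.73 to 10.4 CPM, with its extremes in Tmem173iΔmye tumors and a log2 fold change of 0.03 (SE 0.32).

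**Figure D4:**
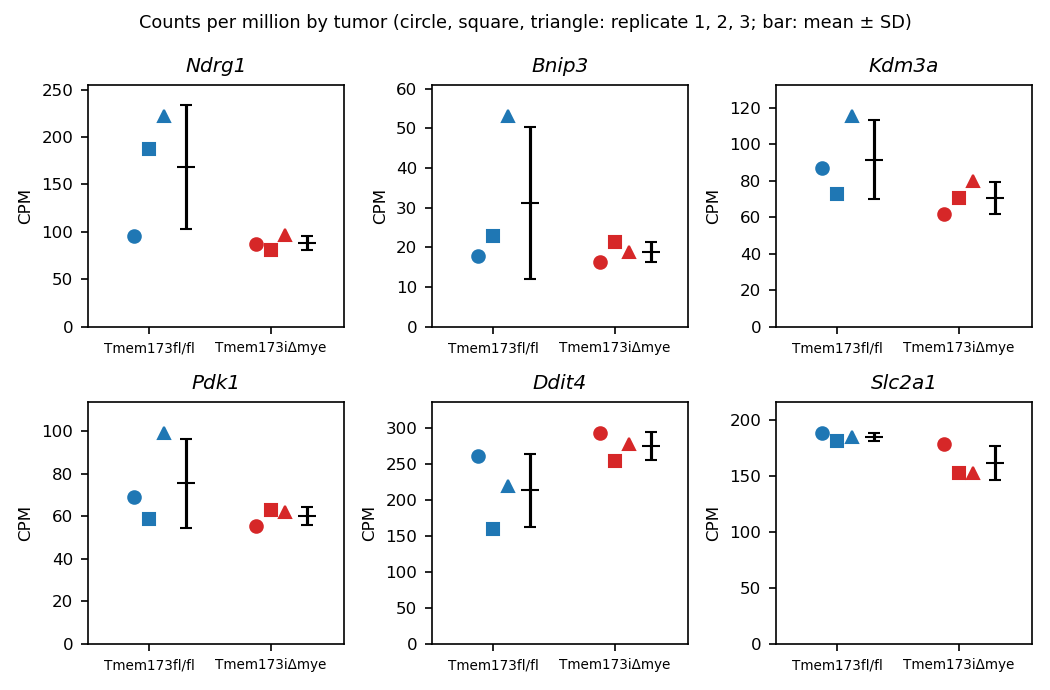
CPM of 6 genes in each tumor (circle, square and triangle for replicates 1, 2 and 3; blue for Tmem173fl/fl, red for Tmem173iΔmye), with the mean ± SD of each genotype (black, n = 3). Tmem173fl/fl replicate 3 is the highest tumor for Ndrg1, Bnip3, Kdm3a and Pdk1 but not for Ddit4 and Slc2a1, and the groups do not overlap for Slc2a1 alone.

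Over the listed genes, Tmem173fl/fl replicate 3 was most often the tumor with the highest level. It was the highest of the 6 tumors for 18 of the 34 rows (52.9%), against 18.1% of all genes tested. It was highest for 7 of the 9 HIF targets, for Egln1 and Egln3, and for 3 of 6 genes of the lower steps of glycolysis (Pgk1, Pgam1 and Eno2). It was the lowest tumor for 4 rows, Hk2, Pfkp, Pfkfb4 and Hif1a. Relative to the mean of the other 2 Tmem173fl/fl tumors, its level was 2.62-fold for Bnip3, 2.8-fold for Ankrd37, 1.85-fold for P4ha1, 1.57-fold for Ndrg1 and 1.55-fold for Pdk1, but 0.426-fold for Hk2. Tmem173iΔmye replicate 3 was the lowest tumor for 10 rows (29.4%), against 8.83% of all genes tested, and the highest for 0. The SD between Tmem173iΔmye tumors was below that between Tmem173fl/fl tumors for 8 of the 9 HIF targets, all but Adm, and for 60.1% of all genes tested. Tmem173fl/fl replicate 3, the highest tumor for 7 of these targets, enters the larger of the SDs. The SDs were 2.5 against 19.1 CPM for Bnip3, 1.24 against 9.14 CPM for P4ha1 and 7.69 against 65.3 CPM for Ndrg1. The shares describe these 6 tumors, since the genes of the list do not vary independently. Red blood cell RNA was also highest in Tmem173fl/fl replicate 3, and its part in these levels was not tested.

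**Figure D5:**
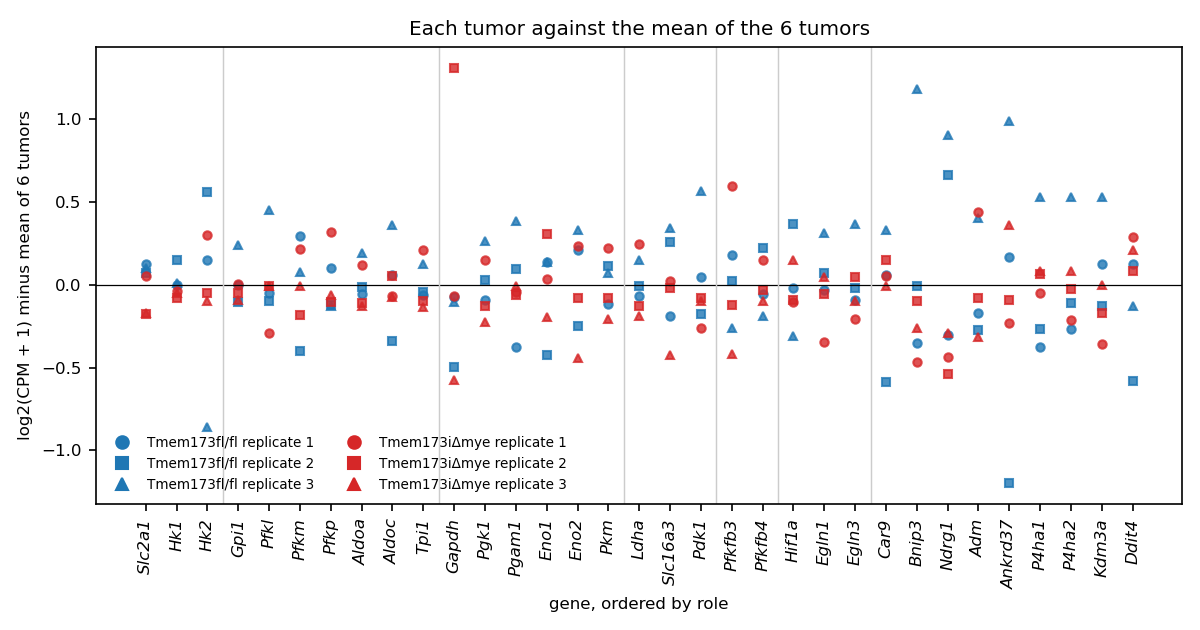
Level of each gene in each tumor as log2(CPM + 1) minus its mean over the 6 tumors (0 line), with the genes ordered by role. Tmem173fl/fl replicate 3 (blue triangles) lies above the other tumors for 7 of the 9 HIF targets at the right and lowest for Hk2, and Tmem173iΔmye replicate 2 stands out for Gapdh.

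Other genes of these pathways were compared by 4 further lists, of which 93 genes were tested, and 10 had an unadjusted p-value under 0.05, 6 higher and 4 lower in Tmem173iΔmye tumors. This was 10.8% of them, against 6.14% of all genes tested, of which 3.23% were higher and 2.9% lower. Without Tmem173iΔmye replicate 1 there were 2 and without Tmem173fl/fl replicate 3 there were 3. Among all 16426 genes tested, the number fell from 1008 to 575 and 535 in the same fits. The lists were chosen with earlier results of these data known, so these shares describe the lists only. The adjusted p-value of each of these 10 was 0.742 from edgeR. Among 29 other genes of glycolysis and pyruvate use, 0 passed this limit as higher and 1 as lower, Mpc1, a subunit of the carrier that brings pyruvate into mitochondria. Mpc1 had 13.3, 16.8 and 15.9 CPM in the Tmem173fl/fl and 10.1, 9.51 and 10.8 CPM in the Tmem173iΔmye tumors, without overlap (log2 fold change -0.60, SE 0.18). The neuronal-type glucose transporter Slc2a3 had 0.60 (SE 0.45) and Pdk4 0.12 (SE 0.52), both with overlapping groups. The median of this list was 0.004.

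Among 15 genes of the HIF system, 0 passed it as higher and 1 as lower, Hif3a, which encodes a HIF subunit with forms that restrain HIF signalling. Hif3a had 11.3, 7.53 and 30.0 CPM in the Tmem173fl/fl and 5.3, 7.12 and 7.13 CPM in the Tmem173iΔmye tumors (log2 fold change -1.32, SE 0.49). The groups did not overlap, but Tmem173fl/fl replicate 2 lay just above the highest Tmem173iΔmye tumor, and Tmem173fl/fl replicate 3 was far above all others. For Epas1 (HIF-2α) the log2 fold change was 0.10 (SE 0.16), and the list had a median of -0.06.

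Among 36 other genes that hypoxia can induce, 4 passed it as higher in Tmem173iΔmye tumors (among them Angptl4, Pgf and Trf) and 2 as lower (Vldlr and Bnip3l), with a median of 0.05 over the list. Angptl4, an inhibitor of lipoprotein lipase, had 3.9, 4.47 and 2.46 CPM in the Tmem173fl/fl and 8.02, 6.49 and 5.35 CPM in the Tmem173iΔmye tumors, without overlap (log2 fold change 0.87, SE 0.32). Pgf, a ligand of the VEGF family, had 3.84, 2.27 and 2.58 CPM and 6.06, 5.23 and 4.14 CPM, also without overlap (log2 fold change 0.83, SE 0.32). Vldlr, a lipoprotein receptor, had 52.6, 37.2 and 38.9 CPM in the Tmem173fl/fl and 30.9, 28.0 and 27.9 CPM in the Tmem173iΔmye tumors (log2 fold change -0.57, SE 0.17). Vegfa, the best known vascular target of HIF, had 91.2, 56.0 and 120 CPM in the Tmem173fl/fl and 100.3, 78.3 and 86.3 CPM in the Tmem173iΔmye tumors. Like Car9, it had the Tmem173fl/fl tumors at both ends and the Tmem173iΔmye tumors between them, and its log2 fold change was -0.01 (SE 0.26).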

How the data were processed

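Total tumor RNA of 6 mice was sequenced after poly(A) selection. Raw counts of reads on each gene were deposited by the authors, and the submitters' processing notes name HISAT2 2.0.5, featureCounts 1.5.0-p3 and GRCm38. How reads with several placements were counted was not given in the sources used here. The FPKM values deposited beside them equal the counts divided by gene length, median-of-ratios size factors and the geometric mean of the library totals. The authors' own fold changes and p-values in the table were not used.

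The test was the quasi-likelihood F test of edgeR 4.0.16 under R 4.3.3 with TMM, the genotype as the only term, a mean FPKM of at least 0.5 and Benjamini-Hochberg adjustment over 16426 genes. The SE came from the size of the log2 fold change over the root of F, and intervals are at 95%. A log2 fold change of at least 1 in size with an unadjusted p-value of at most 0.05 was the study's threshold. Single values were compared by exact two-sided permutation tests (scipy 1.17.1). Copies of the genes were found with BLAST 2.17.0. Alternatives were median-of-ratios scaling, totals without the 20 highest genes, no filter, a stricter FPKM minimum of 1, DESeq2 1.42.0, limma 3.58.1 on log2(FPKM + 1), the replicate number as a block, Y-linked reads as a covariate and leaving out each tumor. Merging copies was added after the data were seen. The fit was also run on simulated counts in which 200 genes were changed by a log2 fold change of at least 1 in size. Smaller differences, such as those of most listed genes, were not simulated.

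The genes and lists (4 pathway lists and 11 cell type marker lists) were chosen with earlier results of these data known. Named in full were genes with an unadjusted p-value under 0.05, the 4 with the highest FPKM, the oxygen sensing genes, Slc2a1 and Slc16a3. Of each pathway list up to 3 genes with the lowest p-values were named, plus Vegfa, Epas1, Slc2a3 and Pdk4. The values of 1 listed gene are not reported here. All other values printed for single genes were chosen after they were seen. Counting error at this depth limits genes of a few reads, such as the second Aldoa row.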

Additional observations from a re-analysis of the deposited data

How the results depend on the processing

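Ndrg1 was below 0 with an unadjusted p-value under 0.05 in all 15 alternatives, from -1.22 to -0.64, and never with an adjusted p-value under 0.05. The number of all genes with an adjusted p-value under 0.05 was 6 without a filter, 28 with DESeq2, 0 to 1 when each tumor was left out and 0 in the other alternatives, with 0 of the listed rows among them in each. The number of listed rows with an unadjusted p-value under 0.05 was 2 without a filter (Bnip3 and Ndrg1) and 1 to 4 when each tumor was left out, 4 without Tmem173fl/fl replicate 1, 3 without Tmem173fl/fl replicate 2 and 2 without Tmem173iΔmye replicate 3, and the number past the study's threshold was then 0 to 2. Among the 16426 genes tested, 1665 had an unadjusted p-value under 0.05 without Tmem173fl/fl replicate 1 and 1067 without replicate 2. This count was 925 without Tmem173iΔmye replicate 3, 1741 of 30939 genes without a filter and 1008 with the main settings. With the replicate number as a block, 3 listed rows had such a p-value (Ndrg1 at -0.86, Kdm3a and Ddit4), as did 1504 of all genes in place of 1008. The deviations of same-numbered tumors correlated at 0.315, 0.00846 and 0.154, and those of differently numbered tumors at -0.374 to 0.223. These few values do not settle whether the number is a pairing. The samples were described as randomly selected, and the number was not taken as a pairing in the main fit. In the 4 pathway lists, 3 genes had an unadjusted p-value under 0.05 with Y-linked reads as a covariate and 2 to 14 when each tumor was left out, 3 without Tmem173fl/fl replicate 3 and 2 without Tmem173iΔmye replicate 1, against 10. Among all genes tested, 553 had such a p-value with that covariate and 535 to 1665 when each tumor was left out. Reversed log2 fold changes lay near 0 in most cases. They were -0.015 for Pfkfb4, -0.0099 for Adm and -0.023 for P4ha1 with totals without the 20 highest genes, 0.0088 for Hk2, 0.011 for Pfkm and 0.0048 for Tpi1 without a filter, 0.099 for Hk2, 0.0115 for Pfkm and 0.0109 for Ankrd37 with limma, 0.10, 0.0197 and 0.0234 for the same 3 genes with the replicate block, and 0.035 for Pgam1, -0.0235 for Eno1, -0.10 for Pfkfb3, -0.0044 for Pfkfb4, 0.0028 for Hif1a and -0.028 for Adm with Y-linked reads. Log2 fold changes when each tumor was left out ranged from -0.247 to 0.314 for Adm, -0.166 to 0.00364 for Aldoa, -0.459 to 0.0522 for the second Aldoa row, -0.255 to 0.103 for Aldoc, -0.66 to 0.453 for Ankrd37, -0.136 to 0.303 for Car9, -0.0781 to 0.20 for Eno1, -0.0913 to 1.01 for Gapdh, -0.167 to 0.0138 for Gpi1, -0.193 to 0.149 for Hif1a, -0.303 to 0.331 for Hk2, -0.188 to 0.0442 for Ldha, -0.16 to 0.376 for P4ha1, -0.311 to 0.152 for P4ha2, -0.26 to 0.297 for Pfkfb3, -0.076 to 0.139 for Pfkfb4, -0.194 to 0.178 for Pfkm, -0.0392 to 0.19 for Pfkp, -0.288 to 0.0887 for Pgam1, -0.173 to 0.0527 for Pkm and -0.128 to 0.059 for Tpi1. The cause was not tested, and fewer tumors remain when a tumor is left out.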

Other observations

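In the list of gluconeogenesis and the pentose phosphate pathway, 2 of 13 genes had an unadjusted p-value under 0.05 from edgeR, both higher in Tmem173iΔmye tumors. This was 15.4% of the list, against 6.14% of all genes tested, of which 3.23% were higher. The list was chosen with earlier results of these data known, so this share describes the list only. Taldo1, transaldolase of the branch that returns pentoses to glycolysis, had 326, 258 and 257 CPM in the Tmem173fl/fl and 428, 377 and 328 CPM in the Tmem173iΔmye tumors. Rpia, which isomerizes ribose-5-phosphate, had 37.8, 29.3 and 22.5 CPM and 57.6, 38.6 and 39.5 CPM. For both, every Tmem173iΔmye tumor lay above every Tmem173fl/fl tumor, narrowly so, where 12.5% of all genes tested did not overlap between the genotypes. The log2 fold changes were 0.43 (SE 0.16) and 0.60 (SE 0.24), with an adjusted p-value of 0.742 from edgeR for each. The median of the list was 0.04, with 7 genes above 0 and 6 below.

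Among other hypoxia-induced genes, Trf, transferrin, had 7.48, 4.47 and 4.08 CPM in the Tmem173fl/fl and 40.7, 7.5 and 7.38 CPM in the Tmem173iΔmye tumors, so that a single tumor, Tmem173iΔmye replicate 1, stood far above the others. Bnip3l, the paralog of Bnip3, had 115, 130.0 and 138 CPM and 101, 110.4 and 99.7 CPM, without overlap. The highest value was in Tmem173fl/fl replicate 3 for both Bnip3 and Bnip3l.

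Among the marker lists, the summed level of the 6 neutrophil genes was 114, 32.9 and 93.9 CPM in the Tmem173fl/fl and 333, 73.1 and 60.3 CPM in the Tmem173iΔmye tumors, highest in Tmem173iΔmye replicate 1, a tumor that was highest for 7 of the 34 glycolysis and hypoxia rows (20.6%) and for 24.9% of all genes tested. The 5 macrophage genes summed to between 295 and 524 CPM and to between 267 and 443 CPM. Most of each sum was Lyz2, which monocytes and neutrophils also express. Lyz2 had 410, 216 and 163 CPM in the Tmem173fl/fl and 317, 274 and 163 CPM in the Tmem173iΔmye tumors. The median log2 fold changes of the marker lists were 0.10 for epithelium, 0.26 for fibroblasts, -0.50 for smooth muscle, 0.55 for skeletal muscle, 0.24 for endothelium, -0.03 for macrophages, 0.69 for neutrophils, 0.70 for T cells, -0.68 for B and plasma cells, -2.04 for red blood cells and 0.002 for adipocytes. The skeletal muscle and adipocyte medians rest on the 3 and 2 genes tested. The summed level of every marker list overlapped between the genotypes. The 5 T cell genes summed to 18.4, 6.27 and 10.5 CPM in the Tmem173fl/fl and 21.7, 19.7 and 11.7 CPM in the Tmem173iΔmye tumors. Of these T cell genes, 0 had an unadjusted p-value under 0.05 from edgeR, against 6.14% of all genes tested. Of the B and plasma cell genes, 2 were above 0 and 3 below. Their summed level was 276, 81.9 and 90.75 CPM in the Tmem173fl/fl and 387, 181 and 236 CPM in the Tmem173iΔmye tumors. The adipocyte genes Adipoq and Plin1 had 0 reads in all tumors.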
